A study of Mus musculus with 8 samples.

Results

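The genes described here encode the machinery that destroys messenger RNA: nonsense-mediated decay, the RNA exosome, the deadenylases, the decapping and 5′ exonuclease enzymes, and the adaptors that bring deadenylases to their targets. The list holds 39 genes, chosen by function. A probe set that the platform annotation assigns to exactly 1 gene was found for 36 of them, out of 18193 genes on the array, and where a gene had several such probe sets the one with the highest mean over all arrays stands for it. Upf3a, Upf3b and Cnot1 are not analysed here. The platform annotation gives Upf3a and Upf3b no probe set of their own, and both probe sets of Cnot1 also carry the gene Gm6158.

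RNA came from purified round spermatids, the haploid germ cells that follow meiosis, of BrdtΔBD1 mutant mice and of control mice. Brdt is a testis-specific chromatin reader, and the protein made from the ΔBD1 allele is missing the first bromodomain, a fold that binds acetylated histones. All mice were of strain 129 Sv/Ev and 2 to 4 months old, and the labels give no zygosity and no genotype for the controls. Each of 4 mutant and 4 control Affymetrix arrays received cells pooled from 7 animals, so an array is a pool and not a mouse. Purity was judged by propidium iodide staining, for which no value is given. The number of arrays limits the precision.

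Most messenger RNAs are destroyed from their ends. The poly(A) tail is shortened first, by PAN2-PAN3 and then by the CCR4-NOT complex, after which the cap is removed and XRN1 digests the body from the 5′ end, or the exosome digests it from the 3′ end. Nonsense-mediated decay removes transcripts whose translation stops too early. Round spermatids stop transcribing as their nuclei condense and rely on stored messages, and mice without Cnot7 are known to have defects of sperm formation. BTG4 is best known in the mouse oocyte, where it brings CCR4-NOT to maternal messages.

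Values are log2 intensities, on which a difference of 1 is a 2-fold change. Differences are mutant minus control. The words rose and fell are kept for genes with an adjusted p under 0.05 in limma, by the Benjamini-Hochberg method over all 18193 genes. Since arrays of the same replicate number deviated together in both groups, a model with the replicate number as a block is given wherever it changes a call. In such bulk samples fewer cells of a type and less RNA per cell cannot be told apart.

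Of the 36 decay genes, 3 rose and 0 fell. The risers were the deadenylase adaptors Btg4 and Tob1 at 2.28-fold and 2.33-fold, and the exosome core subunit Exosc7, at a fitted 2.37-fold over dim control values. Among all genes 1.86% rose and 1.85% fell. Before adjustment, 9 of the 36 were higher and 3 lower with p under 0.05, beside 11.0% and 9.16% of all genes. With the replicate block 8 of the 36 rose, beside 6.6% of all genes, and 0 fell, beside 4.94%. The 5 added were Exosc4, the CCR4-NOT nucleases Cnot6l, Cnot7 and Cnot8, and the helicase Ddx6. A mean intensity of at least 4 was reached by 32 of the 36, but by only 8998 of all genes. Of those 8998, 289 rose and 310 fell, and with the block 987 and 830. Before adjustment 1424 of them were higher and 1331 lower with p under 0.05. Of the 32 decay genes at that level, 3 rose and 0 fell, and with the block 7 and 0. Before adjustment 8 of the 32 were higher and 2 lower. Of the 36 differences 17 were above 0, which is 47.2%, beside 46.3% of all genes, and the median was -0.02 in both. Without control arrays 1 and 3, which stand apart in RNA quality as given further on, the median of the 36 was 0.22, against -0.01 for all genes. With all arrays, the median absolute difference of the 36 was 0.30, against 0.32 for all genes with a mean intensity of at least 4.

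**Figure D1:**
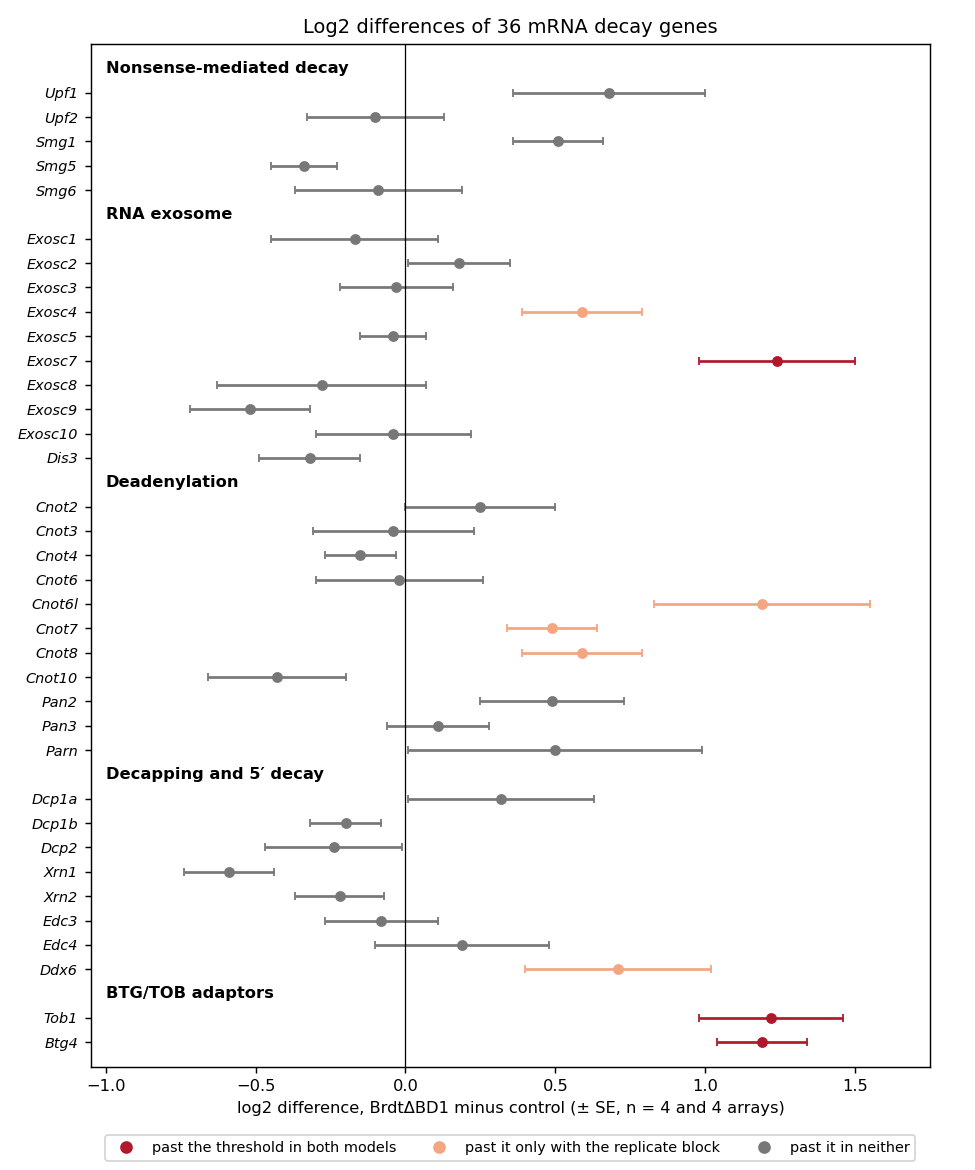
Log2 difference of each of the 36 decay genes, mutant minus control, with the standard error of the limma model (4 mutant and 4 control arrays), grouped by role. Btg4, Tob1, Exosc7 and Cnot6l lie to the right at 1.19 to 1.24, of which Cnot6l rose only with the replicate block. Most other genes lie within 0.6 of 0, with Ddx6 at 0.71 and Upf1 at 0.68.

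The DNA just before the start of the 3 genes that rose in both models is shown because these are the genes the comparison turns on. The windows are from RefSeq on build GRCm38.p6 and run 5′ to 3′ along the gene. Capitals mark 3 motifs searched on both strands, which do not overlap each other here: TGACG, the core of cyclic AMP response elements bound in spermatids by CREM, the TATA box TATAAA, and CCAAT. For Btg4 (chr9:51115751-51116000, plus strand) and Tob1 (chr11:94211204-94211453, plus strand) the 250 bases before the start are given. The Exosc7 window overlaps its neighbour Zdhhc3, so only the 36 bases between these genes are given (chr9:123113195-123113230, plus strand).
Btg4: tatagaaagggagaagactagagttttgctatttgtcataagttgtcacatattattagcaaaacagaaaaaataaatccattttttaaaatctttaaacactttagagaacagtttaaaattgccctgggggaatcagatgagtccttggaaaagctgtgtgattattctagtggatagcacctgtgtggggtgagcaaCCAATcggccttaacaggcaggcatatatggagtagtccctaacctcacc
Tob1: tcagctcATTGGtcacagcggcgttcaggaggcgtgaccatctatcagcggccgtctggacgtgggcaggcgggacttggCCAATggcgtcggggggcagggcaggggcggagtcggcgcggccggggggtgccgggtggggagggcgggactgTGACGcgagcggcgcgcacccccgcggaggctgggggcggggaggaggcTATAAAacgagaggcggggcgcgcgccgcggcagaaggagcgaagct
Exosc7: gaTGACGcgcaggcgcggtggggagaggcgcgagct

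The Btg4 window is 38.0% G and C, against 73.6% for Tob1, 75.0% for the Exosc7 stretch and a median of 52.4% over all 32851 windows of 250 bases. TGACG stands in the Tob1 window and in the Exosc7 stretch and not in the Btg4 window, and 17.8% of all windows hold it. TATAAA stands in the Tob1 window, as in 12.4% of all windows, and CCAAT stands in those of Btg4 and Tob1, as in 33.8% of all windows. These shares and the median are for windows of 250 bases, so they do not compare directly with the 36 bases of Exosc7.

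Btg4, of the BTG/TOB family of proteins that tie the deadenylases to chosen messages, had the smallest adjusted p of the 36. It read 9.95, 10.03, 9.78 and 9.64 on mutant arrays 1 to 4, against 8.77, 8.88, 8.36 and 8.63 on control arrays 1 to 4. Every mutant array lay above every control array. The means were 9.85 ± 0.17 in mutant and 8.66 ± 0.22 in control arrays (SD, n = 4 each), a 2.28-fold rise (log2 difference 1.19, SE 0.15, limma adjusted p = 0.0049). It passed in 8 of 8 fits with a single array left out (limma adjusted p at most 0.025), and under the block in 4 of 4 fits with a replicate number left out (at most 0.049).

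Tob1, an antiproliferative adaptor that bridges poly(A)-binding protein and the CNOT7 nuclease, rose by a similar amount. Mutant arrays 1 to 4 read 9.81, 9.19, 9.35 and 9.57, against 7.62, 8.45, 8.25 and 8.70 on control arrays 1 to 4. The groups did not overlap, and control array 1 was the lowest of the 8. The means were 9.48 ± 0.27 and 8.26 ± 0.46 (SD, n = 4 each), a 2.33-fold rise (SE 0.24 on the log2 scale, limma adjusted p = 0.031). It passed in 3 of these 8 fits, those without mutant array 2, control array 1 and control array 4, with an adjusted p of up to 0.080 in the others. Under the block it passed in 2 of 4 fits with a replicate number left out (limma adjusted p up to 0.12). With the mean of both its probe sets the difference was 0.65 (limma adjusted p = 0.11). Its other probe set averaged 2.17 in mutant and 2.10 in control arrays, a dim reading with a log2 difference of 0.07.

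**Figure D2:**
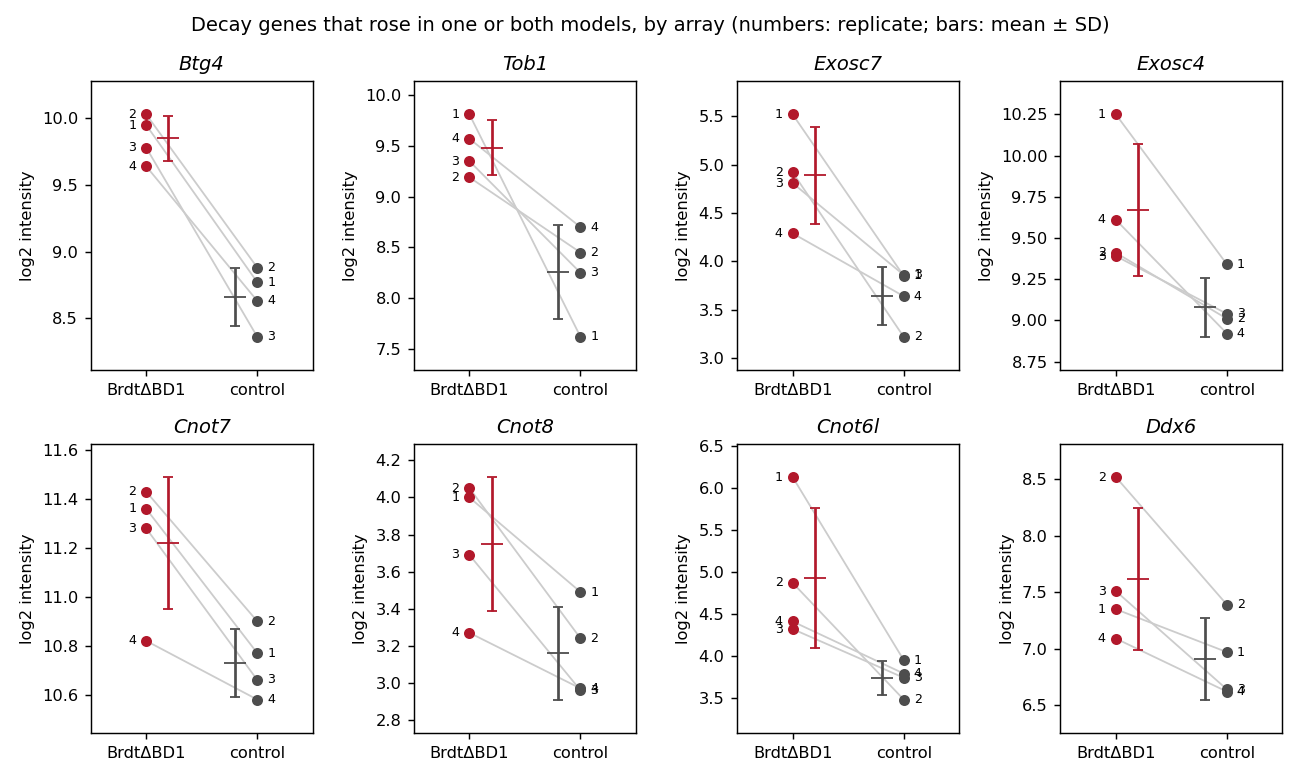
Log2 intensity by array of the 8 decay genes that rose in one or both limma models, mutant left and control right. Points are arrays numbered by replicate, grey lines join arrays of the same number, and bars give the mean ± SD (n = 4); all 4 lines fall from mutant to control in each of the 8 panels, and the groups overlap for Cnot7, Cnot8 and Ddx6.

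The RNA exosome is a ring of catalytically inactive subunits with a cap, to which the nucleases DIS3 and EXOSC10 attach. Exosc7 encodes a ring subunit. It read 5.52, 4.92, 4.81 and 4.29 on mutant arrays 1 to 4, against 3.85, 3.22, 3.86 and 3.64 on control arrays 1 to 4. The groups did not overlap, and the control values lay close to the array medians of 3.10 to 3.14. The means were 4.89 ± 0.50 in mutant and 3.64 ± 0.30 in control arrays (SD, n = 4 each), a log2 difference of 1.24 (SE 0.26, limma adjusted p = 0.038, and 0.018 with the block). The size of this fold is uncertain, since no detection calls were used and the control level may lie at background. Adjusted over all 45037 probe sets it missed the threshold (adjusted p = 0.056), and it passed in 2 of the 8 fits without 1 array, those without mutant array 2 and mutant array 4 (adjusted p up to 0.10 in the others). Under the block it passed in 3 of 4 fits with a replicate number left out (limma adjusted p up to 0.077).

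Exosc4, another ring subunit, read 10.25, 9.41, 9.39 and 9.61 on mutant arrays 1 to 4, against 9.34, 9.01, 9.04 and 8.92 on control arrays. The groups did not overlap, and mutant array 1 was the highest. Its log2 difference was 0.59 (SE 0.20, limma adjusted p = 0.15 without the block and 0.038 with it). With the block it passed in 1 of the 4 fits that leave out a replicate number. A second probe set of Exosc4, averaging 6.82, differed by 0.19 (SE 0.28). The mean of all probe sets of Exosc4 differed by 0.39 (limma adjusted p = 0.34). Its partner in the ring, Exosc9, had a difference of the other sign, -0.52 (SE 0.20, limma adjusted p = 0.19), with 5.86 to 6.50 in mutant and 6.22 to 6.88 in control arrays.

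None of the other ring and cap subunits passed. The log2 differences were -0.04 (SE 0.11) for Exosc5, -0.28 (SE 0.35) for Exosc8, -0.17 (SE 0.28) for the cap subunit Exosc1, 0.18 (SE 0.17) for Exosc2 and -0.03 (SE 0.19) for Exosc3. Their limma adjusted p lay between 0.62 and 0.96. Of the attached nucleases, Dis3 read 11.02 to 11.60 in mutant and 11.43 to 11.97 in control arrays (difference -0.32, SE 0.17, limma adjusted p = 0.34), and Exosc10 had a difference of -0.04 (SE 0.26). Exosc6, the ring partner of Exosc7 and one of the further genes listed later, was dim, at 2.86 in mutant and 2.91 in control arrays (difference -0.04, SE 0.10). Taken by sign, 3 of the 10 exosome genes were higher in mutant arrays.

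In CCR4-NOT, 4 members encode nucleases, which form pairs of related genes: Cnot7 and Cnot8 of the CAF1 type, and Cnot6 and Cnot6l of the CCR4 type. Without the block none of the 4 passed (limma), with an unadjusted p under 0.05 for Cnot6l, Cnot7 and Cnot8. With it these 3 rose. Cnot7 read 11.36, 11.43, 11.28 and 10.82 on mutant arrays 1 to 4, against 10.77, 10.90, 10.66 and 10.58 on control arrays. Mutant array 4 lay among the controls, while each mutant array was above the control array of its own number. The log2 difference was 0.49 (SE 0.15, limma adjusted p = 0.12, and 0.041 with the block). The call under the block was lost in 4 of 4 fits without a replicate number (adjusted p up to 0.17). Its probe set is of a type (suffix _s_at) that can match several related transcripts. Other probe sets of Cnot7, averaging 8.54 and 7.42, differed by 0.24 (SE 0.61) and 0.45 (SE 0.52). The mean of all its probe sets differed by 0.39 (limma adjusted p = 0.58).

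Cnot8 was dim. It read 4.00, 4.05, 3.69 and 3.27 on mutant arrays 1 to 4, against 3.49, 3.24, 2.96 and 2.97 on control arrays. Mutant array 4 fell below control array 1, and the mutant array was the higher in 4 of 4 pairs. The difference was 0.59 (SE 0.20, limma adjusted p = 0.14, and 0.032 with the block), and here too the block call was lost whichever replicate number was left out (adjusted p up to 0.15). Its other probe set rose without the block, with 3.65 ± 0.15 in mutant and 3.0 ± 0.18 in control arrays (SD, n = 4 each; difference 0.65, SE 0.12, limma adjusted p = 0.045 over all probe sets, of which 0.717% rose).

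Cnot6l read 6.13, 4.87, 4.32 and 4.41 on mutant arrays 1 to 4, against 3.95, 3.48, 3.74 and 3.79 on control arrays. The groups did not overlap, and mutant array 1 was the highest. The log2 difference was 1.19 (SE 0.36, limma adjusted p = 0.11, and 0.044 with the block), and 0.80 without that array. With the block it passed in 0 of the 4 fits that leave out a replicate number (limma adjusted p up to 0.099). The control values lay near the array medians, so the size of the fold is uncertain. Its other probe sets were dim, with differences of 0.33, 0.09 and 0.25. The mean of all probe sets of Cnot6l differed by 0.47 (limma adjusted p = 0.089). Its relative Cnot6 had 7.73 to 8.75 in mutant and 7.78 to 8.81 in control arrays, a difference of -0.02 (SE 0.28).

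Whether related genes changed unequally was tested by an exact permutation test of their within-array difference, for 4 pairs. The log2 value of Cnot6 minus that of Cnot6l was 3.27 ± 0.45 in mutant and 4.48 ± 0.49 in control arrays (SD, n = 4 each). The change was -1.21, with the mutant array lower in 4 of 4 replicate numbers (two-sided exact permutation p = 0.029, the smallest that 4 against 4 arrays allow, and 0.114 adjusted over the 4 pairs). Sign changes within the 4 replicate numbers gave an exact p of 0.125, their smallest possible value. With the mean of all probe sets of each gene the difference was -0.10, so it rests on the choice of the brightest probe set. For Cnot7 and Cnot8 the change was -0.10 (exact permutation p = 0.40), for the decapping cofactors Dcp1a and Dcp1b 0.53 (exact p = 0.20), and for the exonucleases Xrn1 and Xrn2 -0.37 (exact p = 0.171).

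The other CCR4-NOT genes had limma adjusted p between 0.35 and 0.95. Log2 differences were 0.25 (SE 0.25) for Cnot2 and -0.04 (SE 0.27) for Cnot3, which are parts of the NOT module, -0.15 (SE 0.12) for the ubiquitin ligase Cnot4 and -0.43 (SE 0.23) for Cnot10. Pan2, the nuclease of the other deadenylase complex, read 6.55 to 7.16 in mutant and 5.67 to 6.74 in control arrays, a difference of 0.49 (SE 0.24, limma adjusted p = 0.29). Its partner Pan3 had 0.11 (SE 0.17). Parn, a poly(A)-specific ribonuclease that also matures small RNAs, ranged from 7.54 to 9.79 in mutant and from 7.45 to 9.08 in control arrays. Its difference was 0.50 (SE 0.49, limma adjusted p = 0.64, and 0.069 with the block), with the mutant array higher in 4 of 4 pairs.

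Among decapping and 5′ decay genes, 0 of 8 passed without the block (limma; before adjustment 1 was higher and 1 lower with p under 0.05). Ddx6, a helicase of processing bodies that represses translation and promotes decapping, rose with it. It read 7.35, 8.52, 7.51 and 7.09 on mutant arrays 1 to 4, against 6.97, 7.39, 6.64 and 6.62 on control arrays. Array 2 was the highest of each group, and the groups overlapped. The log2 difference was 0.71 (SE 0.31, limma adjusted p = 0.24, and 0.036 with the block). The block call held in 1 of 4 fits without a replicate number (adjusted p up to 0.16), and the mean over all probe sets differed by 0.07 (limma adjusted p = 0.92). Another 2 of its probe sets, near a mean of 4, had differences of -0.23 each (SE 0.58 and 0.29).

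The 5′ exonuclease Xrn1 had the smallest adjusted p among the genes lower in mutant arrays, at a low intensity. It read 3.04, 3.48, 3.46 and 3.14 on mutant arrays 1 to 4, against 4.00, 4.03, 3.61 and 3.82 on control arrays. The groups did not overlap, and the difference was -0.59 (SE 0.15, limma adjusted p = 0.069, and 0.056 with the block). Among the alternatives run it passed in 1, with the deposited values quantile-normalized once more (-0.65, limma adjusted p = 0.038). A second, dimmer probe set of Xrn1 differed the other way, by 0.17 (SE 0.11). The mean of both differed by -0.21 (limma adjusted p = 0.28). Xrn2, its nuclear relative, had a difference of -0.22 (SE 0.15). The decapping enzyme Dcp2 (-0.24, SE 0.23), its cofactors Dcp1a (0.32, SE 0.31) and Dcp1b (-0.20, SE 0.12) and the decapping enhancers Edc3 (-0.08, SE 0.19) and Edc4 (0.19, SE 0.29) had limma adjusted p between 0.42 and 0.87. A second probe set of Dcp2, dim like the first, differed the other way, by 0.44 (SE 0.12, limma adjusted p = 0.12 over all probe sets). Other, dimmer probe sets of Dcp1a differed by 0.58 (SE 0.20) and 0.05 (SE 0.14).

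In nonsense-mediated decay, 0 of 5 genes passed in limma with or without the block, and before adjustment 1 was higher and 1 lower with p under 0.05. Smg1 encodes the kinase that phosphorylates the helicase UPF1. It read 9.86, 9.48, 9.5 and 9.43 on mutant arrays 1 to 4, against 8.73, 9.27, 9.12 and 9.11 on control arrays. The groups did not overlap (difference 0.51, SE 0.15, limma adjusted p = 0.11 in both models). Other probe sets of Smg1 differed by 0.43 (SE 0.31), 0.05 and -0.08, and the mean of all by 0.23 (limma adjusted p = 0.39). Smg5, an adaptor that binds phosphorylated UPF1, differed the other way. It had 10.79, 10.92, 10.76 and 10.86 on mutant arrays 1 to 4, against 11.31, 10.96, 11.14 and 11.29 on control arrays, also without overlap (difference -0.34, SE 0.11, limma adjusted p = 0.14, and 0.12 with the block). A second, dim probe set of Smg5 differed by 0.01, and the mean of both by -0.16 (limma adjusted p = 0.30). Upf1 itself read 4.31 to 6.08 in mutant and 4.26 to 4.50 in control arrays (0.68, SE 0.32, limma adjusted p = 0.28). Upf2 (-0.10, SE 0.23) and the endonuclease Smg6 (-0.09, SE 0.28) differed by less than their errors.

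Over all roles, 6 of the 36 genes had every mutant value above every control value, as had 6.15% of all genes, and 2 had every mutant value below, as had 6.49%. These were Btg4, Tob1, Exosc7, Exosc4, Cnot6l and Smg1 on the one side, and Smg5 and Xrn1 on the other. Among the 8998 genes with a mean of at least 4 the counts were 754 above and 859 below. Among the 32 decay genes at that level they were 6 and 1.

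More than 1 probe set averaging 4 or above was available for 13 of the genes, and for 5 of these, Exosc8, Exosc10, Cnot4, Cnot6 and Ddx6, their differences had both signs. A second probe set of Exosc8 averaged 6.31 ± 1.17 in mutant and 5.14 ± 0.43 in control arrays (SD, n = 4 each), a difference of 1.17 (SE 0.52, limma adjusted p = 0.34), where the brightest probe set had -0.28. One of Cnot6 averaged 6.06 ± 0.56 in mutant and 5.20 ± 0.42 in control arrays, a difference of 0.86 (SE 0.30, limma adjusted p = 0.22). One of Cnot4 averaged 7.53 ± 1.07 in mutant and 8.66 ± 0.73 in control arrays, a difference of -1.13 (SE 0.54, limma adjusted p = 0.37). The differences between probe sets of 1 gene were not tested. Of all 90 single-gene probe sets of the 36 genes, 3 rose and 0 fell over all probe sets in limma, beside 0.717% and 0.702% of all probe sets: those of Btg4 and Tob1 and the second of Cnot8. Before adjustment, 15 were higher and 3 lower with p under 0.05, beside 8.43% and 6.69% of all probe sets.

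**Figure D3:**
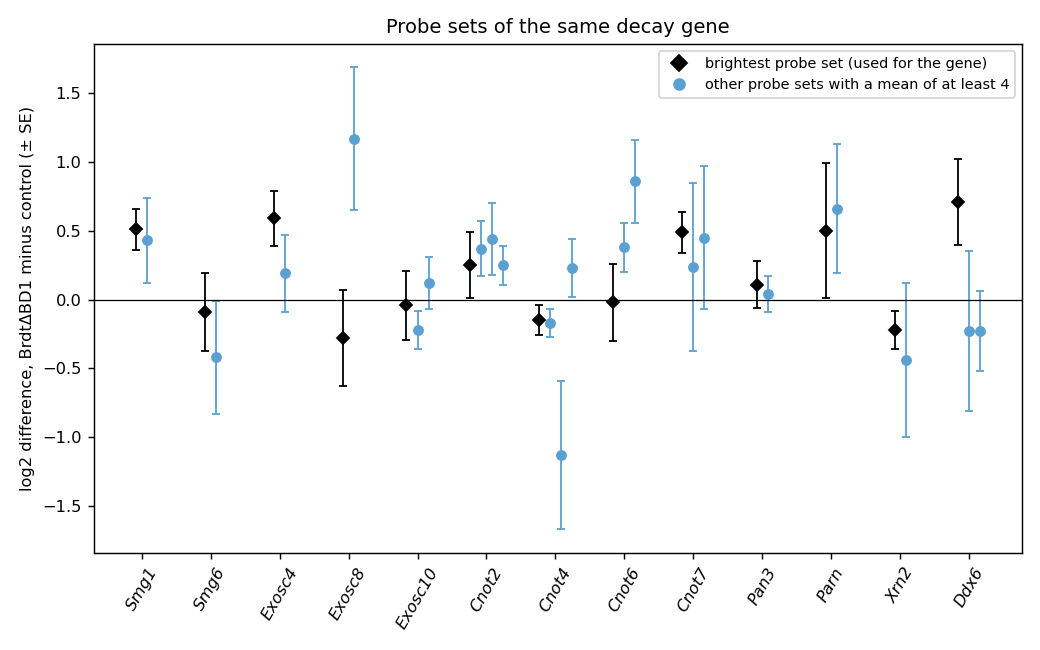
Log2 differences, mutant minus control, with standard errors, of each single-gene probe set averaging 4 or above, for the 13 decay genes with more than 1 such probe set. Diamonds are the brightest probe sets, which stand for the genes; the 4 of Cnot2 lie between 0.25 and 0.44, while those of Exosc8, Cnot4, Cnot6 and Ddx6 spread across 0.

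A further 76 genes of the same pathways were listed by function, and 69 of them were measured. Among these 1 rose and 0 fell in limma, beside 1.86% and 1.85% of all genes. Before adjustment 13 were higher and 7 lower with p under 0.05, beside 11.0% and 9.16%. With the block 10 rose and 4 fell, beside 6.6% and 4.94%. Most of the 69 were bright, 58 averaging 4 or above. Among all 8998 genes that bright, 987 rose and 830 fell with the block. Whether the 69 differ as a set from other genes was not tested. The riser without the block was Rnps1, a factor deposited beside exon junctions that activates nonsense-mediated decay. It read 10.34, 9.93, 10.16 and 9.73 on mutant arrays 1 to 4, against 8.84, 8.5, 9.48 and 9.0 on control arrays, without overlap (2.12-fold, SE 0.22 on the log2 scale, limma adjusted p = 0.036). It passed in 3 of the 8 fits without 1 array, those without mutant array 2, mutant array 4 and control array 3 (adjusted p up to 0.11 in the others). The next 3 by unadjusted p missed the threshold with all arrays and no block, and passed with the block and under 1 or more other alternatives. Tut1, a terminal uridylyltransferase, had 8.46 ± 0.53 in mutant and 9.63 ± 0.42 in control arrays (-1.18, SE 0.29, limma adjusted p = 0.064, and 0.025 with the block). Lsm6, a subunit of the ring that binds shortened tails and favours decapping, had 8.11 ± 0.82 in mutant and 6.60 ± 0.51 in control arrays (1.51, SE 0.41, limma adjusted p = 0.080, and 0.019 with the block). Nbas, which has a part in nonsense-mediated decay and in membrane traffic, had 10.03 ± 0.19 in mutant and 10.61 ± 0.28 in control arrays (-0.58, SE 0.17, limma adjusted p = 0.094, and 0.042 with the block; SD, n = 4 each). With the mean of all probe sets, Rnps1 differed by 0.83, Tut1 by -0.61, Lsm6 by 0.74 and Nbas by -0.27. Their limma adjusted p were then 0.039, 0.073, 0.093 and 0.32.

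Markers of round spermatids were bright. Of 11, 0 rose or fell in limma, 0 being higher and 1 lower before adjustment with p under 0.05, and the list mean was 13.29 to 13.61 on mutant and 13.36 to 13.63 on control arrays, lower on the mutant array in 4 of 4 pairs (difference -0.08). The list means of other testis cells were higher on the mutant array in 4 of 4 pairs. In the Sertoli list 6 of 24 rose, and 14 with the block, with a mean of 5.53 to 7.04 in mutant and 4.70 to 5.46 in control arrays, and a summed linear intensity of 6748 to 26130 against 2156 to 5834. Of the 24, 22 were above 0 (median 1.33), among them Vim at 2.95, Clu at 1.67, Amhr2 at 1.65, Rhox5 at 1.46 and Wt1 at 1.15. Sox9 read 3.80 in both groups, and Amh, at 1.95 in mutant and 1.97 in control arrays, lay below the array medians. Spermatogonia markers, of which 1 of 14 rose and 5 with the block, averaged 5.17 to 5.84 against 4.53 to 4.87. Among spermatocyte markers 0 of 18 passed in limma, 7 being higher and 2 lower before adjustment with p under 0.05. With the block 5 rose and 1 fell, and their mean was 8.94 to 9.95 against 8.85 to 9.29. Leydig markers, of which 5 were measured, averaged 2.91 to 3.69 against 2.69 to 3.02. RNA quality differed too. The signal of the 3′ Gapdh probe set minus that of the 5′ one was 0.33 to 0.94 (log2) on mutant arrays, against 1.68 and 2.05 on control arrays 1 and 3 and 0.48 and 0.46 on control arrays 2 and 4. The mean 18S ribosomal signal was 8.11 on mutant array 1, the highest mutant array for Tob1, Exosc7, Exosc4 and Cnot6l, and 3.99 to 5.40 on the other mutant arrays, against 11.2 and 8.87 on control arrays 1 and 3 and 5.51 and 3.65 on control arrays 2 and 4. Without mutant array 1 the difference was 1.11 for Tob1 (limma adjusted p = 0.065) and 1.03 for Exosc7 (limma adjusted p = 0.053).

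The rises were recomputed in fits that bear on these measures. Without control arrays 1 and 3, 0 of the 36 passed, beside 0.0989% of all genes risen and 0.275% fallen, 7 being higher and 1 lower before adjustment with p under 0.05. The differences themselves were 1.09 (SE 0.17, limma adjusted p = 0.071) for Btg4, 0.90 (SE 0.21, limma adjusted p = 0.16) for Tob1 and 1.46 (SE 0.33, limma adjusted p = 0.16) for Exosc7. With the Sertoli marker mean as a covariate, Btg4 was the 1 gene of the 36 that passed, beside 0.335% of all genes risen and 0.286% fallen, with a difference of 1.55 (SE 0.24, limma adjusted p = 0.044). Tob1 had 0.75 (SE 0.41), Exosc7 1.13 (SE 0.49) and Ddx6 1.86 (SE 0.35, limma adjusted p = 0.056). These values are extrapolated, since the Sertoli means of the groups do not overlap. In the same fit 2 of 18 spermatocyte markers and 1 of 14 spermatogonia markers also rose. Of 11 round spermatid and 5 Leydig markers 0 rose there. The part of the spermatogonia, spermatocyte and Leydig markers in the results was not tested.

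**Figure D4:**
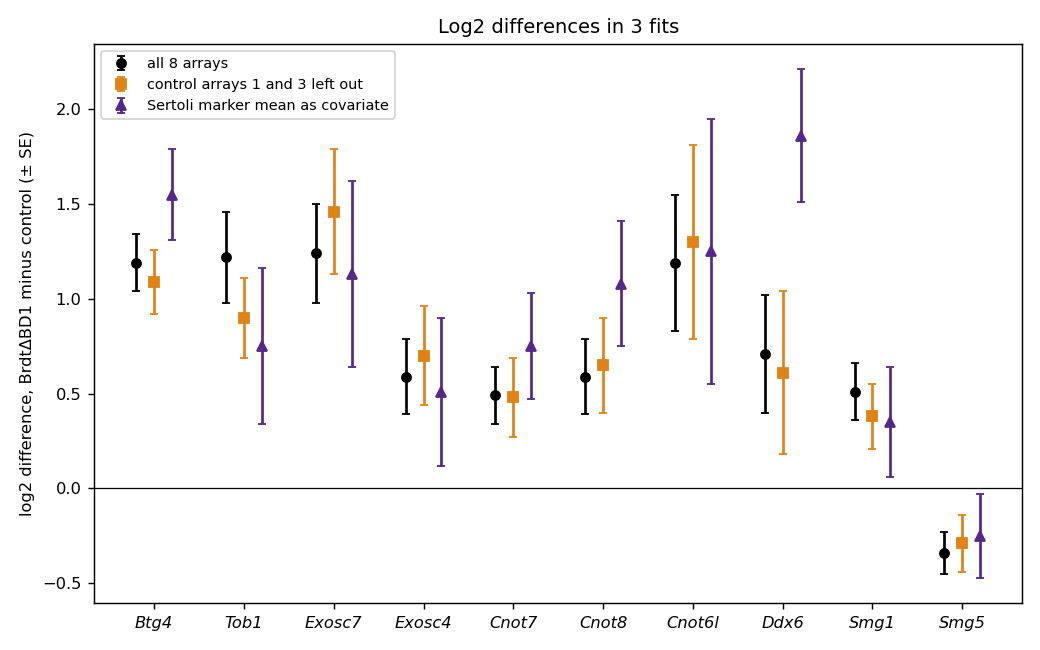
Log2 differences, mutant minus control, with standard errors, of the 8 decay genes that rose in one or both models and of Smg1 and Smg5, from 3 limma fits. Those of Btg4 lie between 1.09 and 1.55 in all 3 fits, and those of Ddx6 run from 0.61 to 1.86.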

How the data were processed

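The authors deposited 1 table of log2 intensities for 45101 probe sets on 8 arrays. The submitters' processing notes name GCRMA and limma, with versions and roles not given in the sources used here, so background correction could not be varied. After leaving out 64 control probe sets, 45037 were tested; of these, the platform annotation gives 34945 a single gene, 932 more than 1 and 9160 none. A GRCm38.p6 gene table brought symbols up to date, holding 34741.

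The model was fitted in limma 3.58.1 (R 4.3.3) with group as its only term. The method was tested on simulated data with known changes, which held no group difference in RNA quality or cell mixture. Paralogues were compared with scipy 1.17.1. The titles number the replicates 1 to 4 in both groups. Same-numbered arrays deviated together from their group means (r = 0.364, 0.416, 0.495 and 0.407 across genes; other combinations -0.261 to -0.017), so a replicate block is reported too. Whether the numbers mark shared preparation days is not stated.

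The decay genes, the further list, the marker lists and the naming rule were chosen with earlier results of these data known. Values on every array were given for genes past the threshold in either model, and for those without overlap and a higher-group mean of at least 4; Xrn1 was added after its values were seen, as were the motifs. Of the further list, genes past the threshold were named, or the 4 with the smallest p. The paralogue test of Upf3a and Upf3b could not be run.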

Additional observations from a re-analysis of the deposited data

Results flagged for a closer look

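In 5 of 72 groups of 4 arrays examined, 1 array lay far from the other 3, by Dixon's criterion. Chance gives about 1 in 20. Smg6 read 7.02 on control array 1, against 5.74 to 5.87 on the other controls, and Exosc1 read 10.70 on control array 1, against 9.96 to 10.08. Mutant array 2 was high for Exosc9, at 6.50 against 5.86 to 5.97 on the other mutant arrays, and for Pan2, at 7.16 against 6.55 to 6.64. Xrn2 read 10.30 on mutant array 1, against 9.97 to 10.01. None of these 5 genes passed the threshold in limma with or without the block, where Exosc9 had an unadjusted p of 0.028 without it.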

How the results depend on the processing

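Of the 36 decay genes, 3 rose with all arrays, 8 with the replicate block, 0 without control arrays 1 and 3, 1 with the Sertoli covariate and 1 to 3 without 1 array; the count was 1 without mutant array 1, mutant array 3, control array 2 or control array 3. In fits added after seeing the data, with the replicate block and a number left out, 5 rose without number 2 and 1 without number 3. None fell, except 1 (Xrn1) with quantile normalization and 2 (Exosc9 and Cnot10) with the block without number 2. Of the further genes, 1 rose in the reported model, 10 with the block, 0 to 3 without 1 array, 4 with array weights, 2 with a trended, robust variance, and 0 without control arrays 1 and 3, adjusted over probe sets or with the Sertoli covariate. In the reported model 0 of them fell, against 4 with the block, 0 to 1 without 1 array, 2 with quantile normalization or array weights, and 1 with a mean of at least 4 required or a trended, robust variance. Alternatives for single genes numbered 876, over the 36 decay genes and the further genes Rnps1, Tut1, Lsm6 and Nbas. Of these, 760 kept direction and call, 31 lost the call, 29 gained it and 56 turned the sign of genes below the threshold. Only Btg4, Tob1, Exosc7 and Rnps1 held a call to lose, so all 31 losses fall on these genes. Most of the 760 concern genes that had no call. Turned without control arrays 1 and 3 were Upf2 (0.14), Smg6 (0.22), Exosc1 (0.0068), Exosc8 (0.27), Cnot3 (0.31), Cnot6 (0.10), Dcp1a (-0.19), Dcp2 (0.06) and Edc3 (0.23). With the Sertoli covariate they were Smg6 (0.23), Exosc3 (0.42), Exosc5 (0.05), Exosc10 (0.20), Cnot4 (0.02), Cnot6 (0.57), Parn (-0.17), Dcp1b (0.16) and Edc3 (0.02). With the mean of all probe sets they were Exosc8 (0.45), Exosc10 (0.01), Cnot3 (0.09), Cnot6 (0.37), Pan3 (-0.00042) and Dcp2 (0.10), and with array weights Cnot3 (0.17). With the block and a number left out they were Smg6 (0.13), Cnot3 (0.18) and Edc3 (0.01) without 1, Cnot6 (0.0018) and Edc4 (-0.03) without 2, and Exosc3 (0.11) and Exosc10 (0.03) without 4. Without 1 array, differences ranged from -0.25 to 0.10 for Upf2, -0.22 to 0.21 for Smg6, -0.38 to 0.06 for Exosc1, -0.16 to 0.10 for Exosc3, -0.08 to 0.0083 for Exosc5, -0.20 to 0.16 for Exosc10, -0.28 to 0.10 for Cnot3, -0.20 to 0.18 for Cnot6, -0.19 to 0.04 for Edc3 and -0.06 to 0.36 for Edc4. The cause was not tested. Signals near the array medians limit Exosc2, Exosc7, Cnot6l, Cnot8, Dcp2 and Xrn1.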
